A study of Mus musculus with 6 samples.

Results

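Oligodendrocytes make the myelin that wraps axons in the brain. From precursor markers to the genes of finished myelin, 35 genes of their lineage were followed in mouse tissue described as infarcted cortex. The genes were taken by symbol from a deposited count table of 56748 genes, each symbol matched 1 row, and 35 of 35 passed the filter on low counts that left 17584 genes to test. They were divided by role into 6 precursor and lineage-wide genes, 8 genes of differentiating cells and 21 genes of mature, myelinating cells.

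The libraries came from male wild-type C57 mice that had received a photochemically induced stroke in the left hemisphere, in which light through the skull clots vessels of the cortex after an agent is injected into the blood. At 2 hours after the stroke the mice were injected through the tail vein with either saline or PLEA nanoparticles, an abbreviation that the labels do not explain, and the tissue was taken at day 3. The study's design names infarcted cortex, whereas the sample labels say only brain. Both groups had the stroke, no unlesioned tissue was analysed here, and neither ages nor separate animals behind the replicates are stated. There were 3 saline and 3 PLEA libraries made with a SMARTer mRNA kit, with 16810448 to 17516434 counts each. P-values therefore measure the spread between these libraries, which may be technical.

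Oligodendrocyte precursors divide under platelet-derived growth factor and persist throughout adult cortex. When they differentiate, the factors OLIG2 and SOX10 are joined by MYRF, and genes of myelin lipids and proteins are switched on. After stroke, mature oligodendrocytes are lost in the lesion and precursors in the surrounding tissue divide. In bulk tissue, fewer cells of a type and less RNA per cell cannot be told apart.

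The stretches before the start sites of 3 mature genes are shown as examples. Aspa, Mag and Opalin shared the order of libraries described below and held letters of factors of the lineage. They were not the only such genes, since Cnp also had that order and matches for both factors in the longer windows given below. Aspa encodes the enzyme aspartoacylase, Mag a glycoprotein of the inner myelin face, and Opalin a membrane protein of oligodendrocytes. Each sequence is the 250 bases before the start in the RefSeq promoter table of GRCm38.p6, read 5′ to 3′ on the gene's own strand (the minus strand for each). Capitals mark matches on either strand to ACAAAG or AACAAT, letters bound by SOX proteins, or to CTGGCAC or CTGGTAC, letters bound by MYRF.
Aspa at chr11:73324638-73324887: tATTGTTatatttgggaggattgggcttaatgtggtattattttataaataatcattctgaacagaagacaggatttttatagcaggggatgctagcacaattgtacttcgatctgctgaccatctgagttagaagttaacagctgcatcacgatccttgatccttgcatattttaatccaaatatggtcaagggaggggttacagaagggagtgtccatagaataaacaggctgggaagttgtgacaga
Mag at chr7:30914923-30915172: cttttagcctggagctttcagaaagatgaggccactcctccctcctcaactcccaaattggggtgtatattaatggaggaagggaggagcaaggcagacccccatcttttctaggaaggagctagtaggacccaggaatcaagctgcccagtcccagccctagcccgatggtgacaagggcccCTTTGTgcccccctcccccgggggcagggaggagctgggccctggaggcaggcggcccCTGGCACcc
Opalin at chr19:41077114-41077363: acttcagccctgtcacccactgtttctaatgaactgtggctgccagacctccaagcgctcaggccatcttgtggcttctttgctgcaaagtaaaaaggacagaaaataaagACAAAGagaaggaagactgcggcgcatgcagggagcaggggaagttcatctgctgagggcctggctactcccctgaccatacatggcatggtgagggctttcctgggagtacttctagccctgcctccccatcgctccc
The printed stretch of Mag held 1 SOX and 1 MYRF match, and those of Aspa and Opalin held 1 SOX match each. In the table's full windows of 300 bases, which add 50 bases after the start, SOX letters stood in 12 of 29 windows of the 25 genes matched by symbol (41.4%) and in 27.0% of all 32851 windows. MYRF letters stood in 5 of the 29 windows (17.2%), from Cnp, Mag, Mog and Opalin, and in 7.1% of all windows. The strings for each factor were searched together and a window was counted once, whatever the overlap between matches. A match is a run of letters and does not show that a factor binds there.

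No gene of the lineage passed the test between PLEA and saline. In edgeR's quasi-likelihood test 0 of 35 had an adjusted p under 0.05, where 0.0% of all tested genes did, and the smallest adjusted p among the 35 was 0.818. Limma voom called 0 of the 35 as well, as did DESeq2, which called 0.223% of 17518 genes. EdgeR with no filter on low counts also called 0 of the 35, and 0.111% of 34187 genes. At an unadjusted edgeR p under 0.05, 5 of the 35 were lower in PLEA (14.3%, against 3.58% of all tested genes) and 0 were higher (against 2.28%, for 5.86% in both directions). By DESeq2 7 were lower and 0 higher (3.39% of all genes in both directions), and with no filter 10 were lower and 0 higher (6.19%). The count of 5 came to 1 without saline replicate 2 or PLEA replicate 3, to 2 without PLEA replicate 2, and to 8 without saline replicate 1 or 3, and without saline replicate 2 Myrf and Tspan2 were higher. The share of all tested genes was not counted in these fits, so the moves cannot be read as particular to the lineage. The 5 genes lower in the fit to all libraries were Aspa, Ugt8a, Car2 and Qdpr of the mature group, all enzymes, and the precursor gene Lhfpl3. The fold change was negative for 25 of 35 genes (71.4%), against 51.0% of all tested genes. The median log2 fold change was -0.21 over the 35, against -0.01 over all tested genes. Markers of several other cells had negative values as well, with 5 of 5 astrocyte markers (median -0.68), 5 of 5 microglial (-0.70), 4 of 4 endothelial (-0.39), 5 of 5 mural (-0.37), 6 of 6 fibroblast (-1.28) and 4 of 5 neuronal markers (-0.07). Other lists were mostly positive, with 8 of 8 striatal markers (median 0.54) and 3 of 4 tested choroid plexus markers (1.29). The same held for 2 of 3 tested erythroid (0.52) and 2 of 3 tested Schwann cell markers (0.11). Of all these markers 0 passed the test. Their part in the lineage values was not tested. Saline replicate 2 and PLEA replicate 2 stood apart from the rest in many of these genes.

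**Figure D1:**
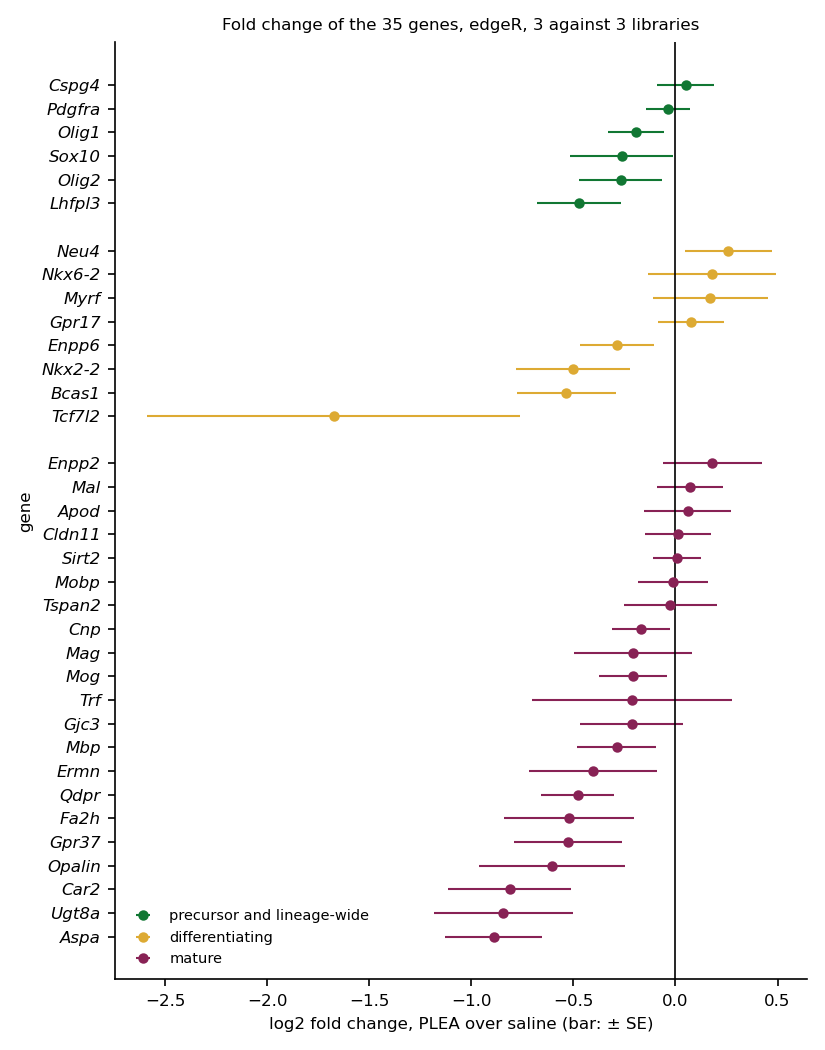
Fold change of each of the 35 genes, PLEA over saline, on a log2 scale (x axis) with the standard error as bars, sorted within the precursor and lineage-wide, differentiating and mature groups. Aspa, at -0.89, is the lowest of the mature genes, and the wide bar of Tcf7l2 (SE 0.92) reflects libraries that differ by 15.3-fold.

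Of the 3 precursor markers, Pdgfra and Cspg4 varied little across the 6 libraries. Pdgfra, the receptor through which platelet-derived growth factor drives precursor division, measured 66.6, 61.2 and 65.5 CPM in the saline libraries, given here and below in the order of their replicate numbers, against 59.2, 67.2 and 62.0 CPM in the PLEA libraries. CPM is the usual scaling of a count to the depth of its library, here with the totals corrected by TMM factors. Its highest library was only 1.14 times its lowest, the narrowest span of the 35 genes, and the log2 fold change was -0.04 (SE 0.11, edgeR adjusted p = 0.966). Cspg4, which encodes a proteoglycan on the precursor surface, was at 30.2, 25.0 and 26.6 CPM in saline and 26.9, 25.7 and 32.1 CPM in PLEA. Its groups overlapped throughout, with a log2 fold change of 0.05 (SE 0.14, edgeR adjusted p = 0.963).

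Both markers are also expressed outside the lineage, Pdgfra in fibroblasts of the meninges and Cspg4 in mural cells of vessels. The 6 fibroblast markers (Dcn, Col1a1, Col1a2, Lum, Aldh1a2 and Slc6a13) summed to 90.5 to 132 CPM in saline and 43.5 to 56.8 CPM in PLEA, with no overlap, whereas the Pdgfra values overlapped. The 5 mural markers summed to 163 to 283 CPM in saline and 131 to 159 CPM in PLEA. How much of the Pdgfra and Cspg4 signal came from those cells was not tested.

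Lhfpl3, a tetraspan-family gene enriched in precursors, was the exception among the precursor markers. It was at 32.7, 55.7 and 42.9 CPM in saline and 29.0, 36.9 and 28.7 CPM in PLEA, so PLEA replicate 2 lay above saline replicate 1. The log2 fold change was -0.47 (SE 0.20, edgeR adjusted p = 0.818). Without saline replicate 2, its highest library, the log2 fold change was -0.27.

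The lineage-wide transcription factors had small negative values. Olig1 was at 86.1, 92.1 and 67.0 CPM in saline and 72.0, 68.5 and 74.0 CPM in PLEA (log2 fold change -0.19, SE 0.14). Olig2, the basic helix-loop-helix factor that specifies the lineage, was at 24.6, 32.2 and 21.2 CPM in saline and 21.9, 17.1 and 25.8 CPM in PLEA (log2 fold change -0.27, SE 0.20). For Olig2 the value was -0.09 without saline replicate 2, -0.13 without PLEA replicate 2, -0.41 without saline replicate 3 and -0.42 without PLEA replicate 3, and for Olig1 it was -0.10 without saline replicate 2 and -0.33 without saline replicate 3. Saline replicate 3, not a PLEA library, was the lowest for Olig1, and PLEA replicate 2 the lowest for Olig2. Sox10, which maintains oligodendrocyte identity, reached 55.7 CPM in saline replicate 2, with each of the other 5 libraries between 27.1 and 35.3 CPM. Its log2 fold change of -0.26 (SE 0.25) turned to 0.10 without saline replicate 2. EdgeR's adjusted p for the 3 factors ranged from 0.844 to 0.871. The median over the 6 precursor and lineage-wide genes was -0.23. Leaving out saline replicate 2 moved it to -0.09, leaving out PLEA replicate 2 to -0.14 and leaving out saline replicate 3 to -0.37.

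Genes of differentiating cells did not share a direction. Of 8, 4 had positive and 4 negative log2 fold changes, and 0 had an unadjusted edgeR p under 0.05. Gpr17, a receptor of committed precursors that is lost on maturation, was at 36.4, 35.1 and 37.9 CPM in saline and 29.7, 40.9 and 44.7 CPM in PLEA (log2 fold change 0.08, SE 0.16). The saline libraries lay close together, and the PLEA libraries reached to both sides of them. Neu4, a sialidase, ranged from 6.28 to 8.32 CPM in saline and 6.99 to 9.06 CPM in PLEA (log2 fold change 0.26, SE 0.21). Enpp6, a choline phosphodiesterase and a marker of newly forming oligodendrocytes, was at 10.3, 13.6 and 14.2 CPM in saline and 9.65, 10.8 and 10.8 CPM in PLEA (log2 fold change -0.29, SE 0.18, edgeR adjusted p = 0.840). Saline replicate 1 fell among the PLEA libraries, so the groups overlapped.

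Bcas1, which marks premyelinating cells, split the saline group. It was at 138, 131 and 67.8 CPM in saline and 72.7, 79.2 and 80.5 CPM in PLEA (log2 fold change -0.54, SE 0.24, edgeR adjusted p = 0.818). Saline replicate 3 was the lowest of the 6 libraries and the other 2 saline libraries the highest. The log2 fold change was -0.81 without saline replicate 3 and -0.36 without saline replicate 1. Nkx2-2, a homeodomain factor that promotes differentiation, was low in all libraries, with 46 to 85 counts, and its log2 fold change was -0.50 (SE 0.28), or -0.29 without saline replicate 2. Nkx6-2, a homeodomain factor of myelinating cells, ranged from 5.04 to 8.67 CPM in saline and 5.84 to 10.7 CPM in PLEA (log2 fold change 0.18, SE 0.31).

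Myrf, the factor that switches on myelin genes, was at 48.0, 98.1 and 51.8 CPM in saline and 57.0, 78.4 and 87.4 CPM in PLEA. Saline replicate 2 was the highest library, and the other 2 saline libraries were the lowest of the 6. Its log2 fold change was 0.17 (SE 0.28, edgeR adjusted p = 0.924), and 0.57 without saline replicate 2. In PLEA replicate 2 Myrf stood above 3 of the other libraries, whereas Opalin, Mag and Ugt8a were at their lowest there. In the deposited table Myrf spans bases 10185636 to 10218112 of chromosome 19.

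Tcf7l2, an effector of Wnt signalling in differentiating oligodendrocytes, had the widest span of the 35 genes. Saline replicate 2 held 79.5 CPM, and the other 5 libraries between 5.20 and 16.3 CPM. The log2 fold change of -1.68 (SE 0.92, edgeR adjusted p = 0.818) turned to 0.44 without saline replicate 2. Tcf7l2 is also known from neurons of the thalamus, and thalamic genes were looked up after this value was seen. Of 10 such genes, 7 were highest in saline replicate 2 (70.0%, against 21.9% of all tested genes). Slc17a6, a vesicular glutamate transporter of thalamic neurons, was at 284 CPM there and at 22.4 to 37.8 CPM elsewhere. Lef1, another Wnt effector of the thalamus, was at 18.5 CPM there and at 2.38 to 5.69 CPM elsewhere. Prkcd, a kinase of thalamic relay neurons, went the other way, with 9.36 CPM in saline replicate 2 and 25.6 to 49.8 CPM elsewhere. Synpo2, at 9.36 to 12.1 CPM over all libraries, and Gbx2, at most 1.85 CPM, were not highest in saline replicate 2 either. The 10 genes summed to 586 CPM in saline replicate 2 and to 206 to 232 CPM in the other libraries. Of the 586 CPM, Slc17a6 gave 284 and Rora 151 CPM. The 8 striatal markers summed to 212 CPM in saline replicate 2 and to 924 to 2166 CPM in the others. How much of the Tcf7l2 signal came from neurons was not tested.

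The median over the 8 differentiating genes was -0.11, and without saline replicate 2 it was 0.22. Without PLEA replicate 1 the median was -0.01, without PLEA replicate 3 -0.24 and without saline replicate 1 -0.18.

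**Figure D2:**
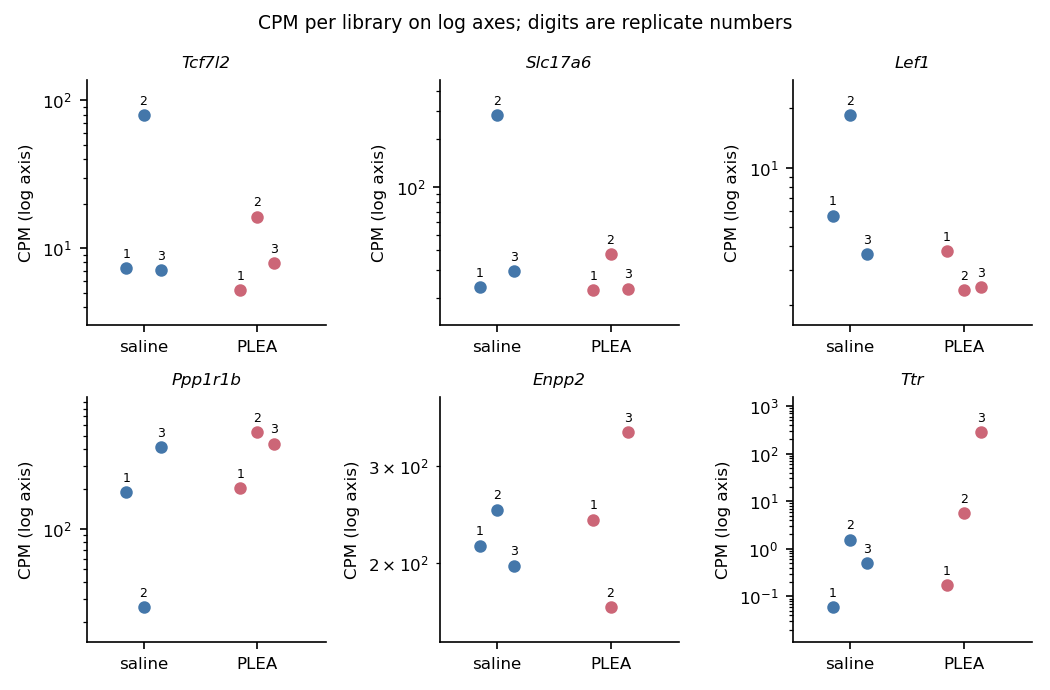
CPM in each library (y axis, log scale) for Tcf7l2, the thalamic genes Slc17a6 and Lef1, the striatal gene Ppp1r1b, Enpp2 and the choroid plexus gene Ttr, with saline and PLEA libraries apart and replicate numbers beside the points. Saline replicate 2 is the highest point for Tcf7l2 (79.5 CPM), Slc17a6 and Lef1 and the lowest for Ppp1r1b (25.8 CPM), while PLEA replicate 3 is the highest for Enpp2 and Ttr.

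Several structural myelin genes were among the more abundant members. The log2 fold changes of the 10 structural genes ranged from -0.60 (Opalin) to 0.07 (Mal). Compared per kilobase of gene length, the mean level over the 6 libraries was highest for Mbp, at 170 CPM per kilobase. Apod followed at 128, Trf at 98.0, Cldn11 at 95.6, Mobp at 88.0, Mal at 77.4 and Cnp at 61.5 CPM per kilobase. Apod and Trf are not structural genes, and the structural genes Mog, Ermn and Opalin were at 25.8, 17.6 and 6.19 CPM per kilobase. Pdgfra stood at 6.35, Gpr17 at 7.21 and Nkx2-2, the lowest, at 1.14 CPM per kilobase.

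Mbp, whose protein compacts the myelin sheath, was at 1527, 1970 and 1252 CPM in saline and 1184, 1228 and 1475 CPM in PLEA. The groups overlapped and the log2 fold change was -0.29 (SE 0.19, edgeR adjusted p = 0.842), or -0.11 without saline replicate 2. Mog, on the outer myelin surface, was at 44.6, 55.1 and 41.4 CPM in saline and 48.0, 34.5 and 39.7 CPM in PLEA (log2 fold change -0.21, SE 0.16). Without saline replicate 2 Mog was at -0.08 on the log2 scale, without PLEA replicate 2 at -0.10 and without PLEA replicate 1 at -0.35. Mag was at 121, 215 and 130 CPM in saline and 147, 86.7 and 169 CPM in PLEA (log2 fold change -0.21, SE 0.29). For Mag the extremes of the 6 libraries were saline replicate 2 and PLEA replicate 2, and without either of them the log2 fold change turned positive (0.10 and 0.03).

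Cnp, an enzyme of the non-compact myelin, was at 213, 276 and 222 CPM in saline and 235, 193 and 205 CPM in PLEA (log2 fold change -0.17, SE 0.14, edgeR adjusted p = 0.859). Leaving out saline replicate 2 took Cnp to -0.05, PLEA replicate 2 to -0.11 and PLEA replicate 1 to -0.26. Mobp, Cldn11, Mal and Tspan2 had log2 fold changes from -0.03 to 0.07, with edgeR adjusted p from 0.949 to 0.996. Cldn11 encodes the tight junction protein of myelin, Mal a proteolipid of its membrane rafts and Tspan2 a tetraspanin. Tspan2 had an SD of 61.1 CPM in saline and 8.11 CPM in PLEA, because saline replicate 2, at 238 CPM, lay far above the 126 to 174 CPM of the other libraries.

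Opalin and Ermn, genes of late differentiation, spread more widely. Opalin was at 17.4, 32.5 and 16.1 CPM in saline and 20.98, 8.95 and 13.5 CPM in PLEA (log2 fold change -0.60, SE 0.36, edgeR adjusted p = 0.827). Ermn, a cytoskeletal protein of myelinating cells, was at 55.9, 113 and 50.3 CPM in saline and 67.7, 41.8 and 56.1 CPM in PLEA (log2 fold change -0.40, SE 0.31). Without saline replicate 2 the values were -0.22 for Opalin and 0.05 for Ermn. Saline replicate 2 was the highest library for 10 of the 10 structural genes, and PLEA replicate 2 the lowest for 6.

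Among the mature genes, the lowest log2 fold changes were those of Aspa, Ugt8a and Car2, from the enzymes and carriers of the myelinating cell. The same list held the highest, Enpp2 at 0.18. Aspa, which splits N-acetylaspartate and so frees acetate for lipid synthesis, was at 18.9, 29.0 and 19.2 CPM in saline (322, 501 and 312 counts). In PLEA it was at 15.1, 9.29 and 11.8 CPM (261, 164 and 211 counts), so each PLEA library lay below each saline library. The means were 22.4 ± 5.72 CPM (SD, n = 3) and 12.1 ± 2.90 CPM (SD, n = 3), a log2 fold change of -0.89 (SE 0.24) or a ratio of 0.539. The edgeR p was 0.00522 and the adjusted p 0.818, so Aspa did not pass. It stayed under an unadjusted p of 0.05 in each of the 6 fits that left out 1 library, with log2 fold changes from -1.09 to -0.66, and in 7 of 7 other alternatives. Its smallest adjusted p in any of them was 0.121, with DESeq2. In the deposited table Aspa spans bases 73195818 to 73220422 of chromosome 11.

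Qdpr, which regenerates the cofactor tetrahydrobiopterin and is abundant in oligodendrocytes, was the other gene whose groups did not overlap. It was at 67.5, 88.7 and 66.5 CPM in saline and 65.2, 44.7 and 49.9 CPM in PLEA. The gap between the lowest saline and the highest PLEA library was narrow, and the log2 fold change was -0.48 (SE 0.18, edgeR adjusted p = 0.818). Thus 2 of 35 genes had all PLEA libraries below all saline libraries (5.71%, against 5.54% of all tested genes), and 0 had them above (against 5.16%), shares close to those of all tested genes.

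Ugt8a, which makes galactosylceramide, the main glycolipid of myelin, was at 60.5, 98.1 and 62.9 CPM in saline and 63.9, 24.4 and 35.1 CPM in PLEA. PLEA replicate 1 lay within the saline range and the other 2 PLEA libraries well below it. The log2 fold change was -0.84 (SE 0.34, edgeR adjusted p = 0.818), -1.32 without PLEA replicate 1 and -0.58 without PLEA replicate 2. Fa2h, which hydroxylates the fatty acids of the same lipids, was at 27.2, 69.0 and 44.8 CPM in saline and 38.1, 24.0 and 36.1 CPM in PLEA (log2 fold change -0.52, SE 0.32). Without saline replicate 2 Fa2h was at -0.14 on the log2 scale.

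Car2, a carbonic anhydrase of oligodendrocytes, was at 141, 168 and 105 CPM in saline and 110, 45.7 and 80.0 CPM in PLEA. PLEA replicate 1 lay just above saline replicate 3, so the groups overlapped. The log2 fold change was -0.81 (SE 0.30, edgeR adjusted p = 0.818), and -0.54 without PLEA replicate 2. Car2 is also a red cell gene, and the 5 erythroid markers summed to at most 3.26 CPM in any library. How much of the Car2 signal came from red cells was not tested.

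Trf, which encodes transferrin, swung across libraries of both groups. It was at 459, 391 and 198 CPM in saline and 487, 110 and 307 CPM in PLEA (log2 fold change -0.21, SE 0.49). The value was 0.18 without PLEA replicate 2 and -0.76 without PLEA replicate 1. Apod, a lipocalin that oligodendrocytes share with fibroblasts around vessels, was at 383, 350 and 237 CPM in saline and 299, 293 and 420 CPM in PLEA (log2 fold change 0.06, SE 0.21).

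Enpp2, which encodes autotaxin, was highest in PLEA replicate 3. It was at 215, 250 and 198 CPM in saline and 240, 167 and 345 CPM in PLEA (log2 fold change 0.18, SE 0.24), and the value turned to -0.12 without PLEA replicate 3. Enpp2 and Trf are also expressed in the choroid plexus, and Ttr, the main secreted product of that tissue, reached 281 CPM in PLEA replicate 3 and 0.0587 to 5.55 CPM in the other libraries. The 5 choroid plexus markers summed to 331 CPM in PLEA replicate 3 and to 6.98 to 36.6 CPM in the others. What part of Enpp2 came from that tissue was not tested.

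The remaining mature genes were Gjc3, Gpr37 and Sirt2. Gjc3, a connexin, was between 45.1 and 91.3 CPM in saline and between 49.3 and 58.5 CPM in PLEA (log2 fold change -0.22, SE 0.25), and turned to 0.17 without saline replicate 2. Gpr37, a receptor that restrains myelination, was at 46.1, 90.9 and 55.7 CPM in saline and 55.1, 35.2 and 43.4 CPM in PLEA (log2 fold change -0.53, SE 0.26, edgeR adjusted p = 0.818), and it was at -0.19 without saline replicate 2. Sirt2, a tubulin deacetylase of the non-compact myelin, was nearly level, at 110 to 119 CPM in saline and 105 to 130 CPM in PLEA (log2 fold change 0.01, SE 0.12).

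Over the 21 mature genes the median log2 fold change was -0.21, with 16 negative and 5 positive values, and without Apod, Enpp2, Trf and Car2, which other cells also express, it was -0.22. The median was -0.19 for the 10 structural genes and -0.50 for the 8 enzymes and carriers. For the 21, leaving out saline replicate 2 moved the median to -0.05, leaving out PLEA replicate 2 to -0.11 and leaving out saline replicate 3 to -0.41.

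**Figure D3:**
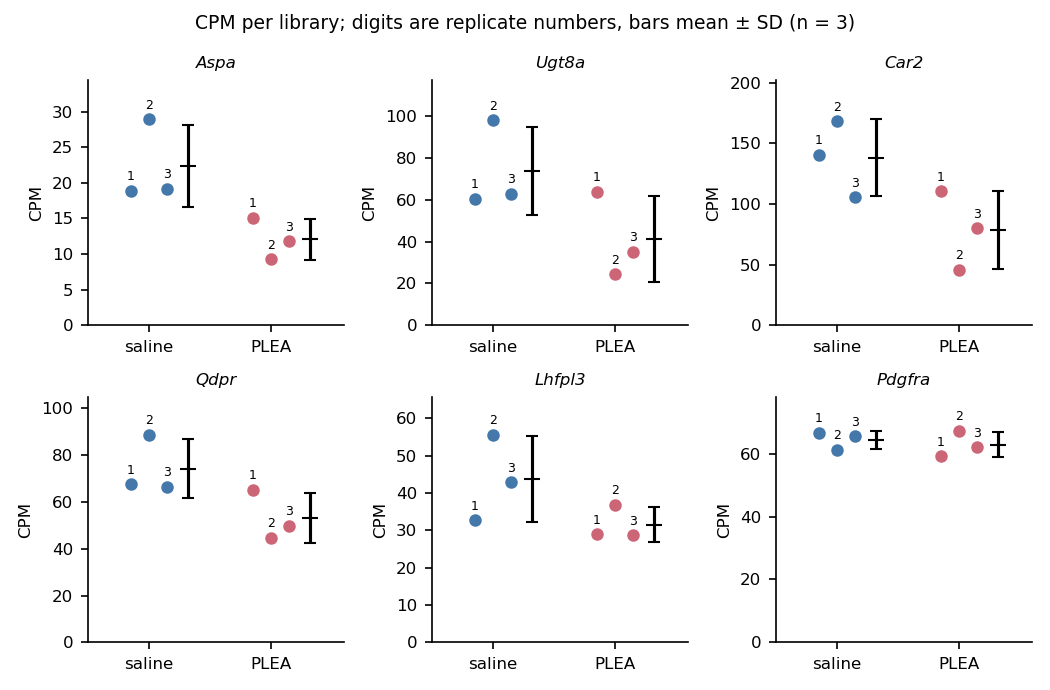
CPM in each library (y axis from 0) for the 5 genes with an unadjusted edgeR p under 0.05 and for Pdgfra, with replicate numbers beside the points and the mean ± SD (n = 3) beside each group. The PLEA points of Aspa (9.29 to 15.1 CPM) lie below its saline points, whereas those of Pdgfra lie among them.

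Single libraries stood apart across the lineage. Saline replicate 2 was the highest of the 6 libraries for 24 of the 35 genes (68.6%), against 21.9% of all tested genes, and for 17 of the 21 mature genes. PLEA replicate 2 was the lowest for 17 of the 35 (48.6%), against 19.1% of all tested genes, and for 7 of the 8 enzymes and carriers. Both held for 15 of the 35 genes (42.9%), 12 of them mature, against 4.52% of all tested genes. This order was noticed in the data and its genes share the libraries, so no test was made of it.

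Averaged over the 21 mature genes, the log2 level relative to each gene's mean of 6 libraries was 0.47 in saline replicate 2 and -0.53 in PLEA replicate 2. The other saline libraries were at -0.05 and -0.15 and the other PLEA libraries at 0.02 and -0.09. Saline replicate 2 was at 0.50 in the 8 differentiating genes, 0.46 in the 3 lineage-wide genes and 0.12 in the 3 precursor markers. The 0.50 includes Tcf7l2, at 79.5 CPM there and 5.20 to 16.3 CPM elsewhere. Of the 8 differentiating genes only 3 were highest in saline replicate 2, and Gpr17 was below its mean there. PLEA replicate 2 was at -0.10 in the differentiating genes, -0.34 in the lineage-wide genes and -0.02 in the precursor markers. Saline replicate 2 was thus high in lineage-wide and mature genes, in some differentiating genes and in Slc17a6, and low in striatal markers. PLEA replicate 2 had the lowest summed level of microglial markers, 118 CPM against 220 to 669 CPM elsewhere, and of astrocyte markers, 717 CPM against 1129 to 2897 CPM elsewhere. The 5 neuronal markers summed to 4426 to 5766 CPM over all libraries, with PLEA replicate 2 inside that range. The part of these other cells and regions in the lineage values was not tested.

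**Figure D4:**
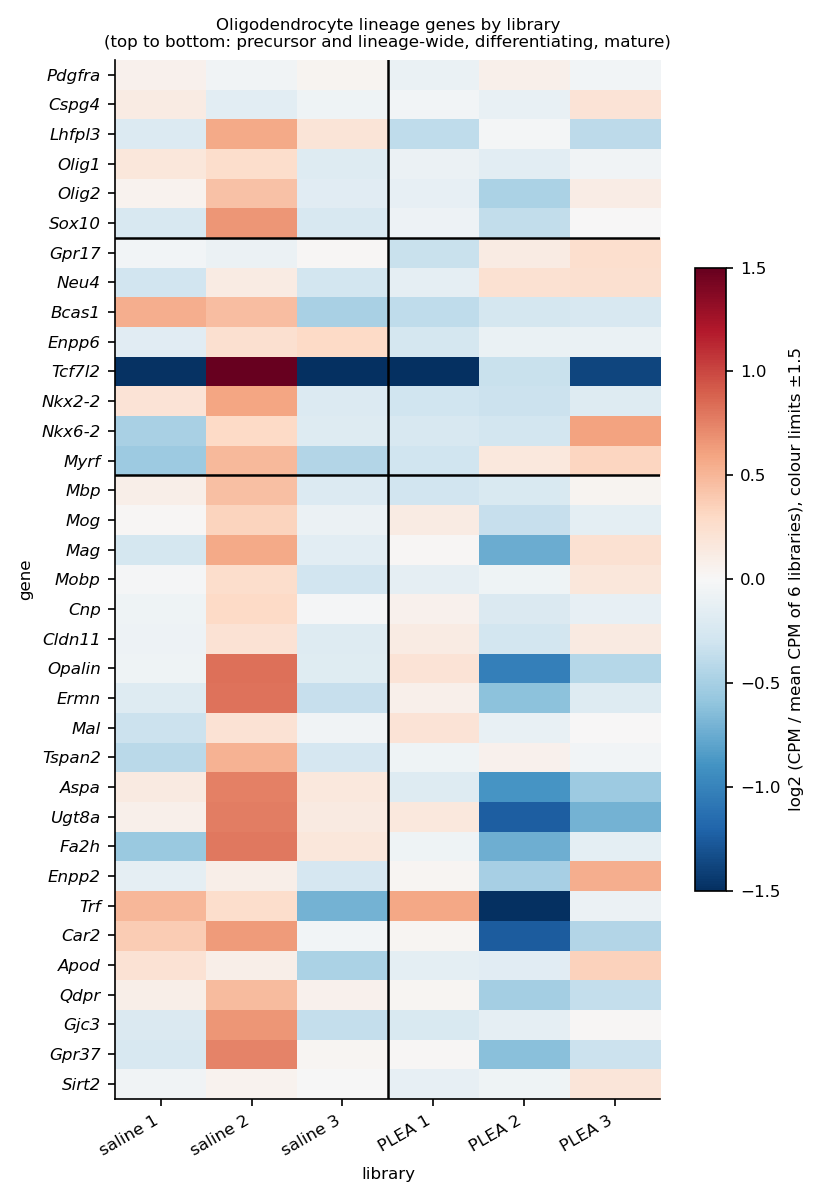
Level of each of the 35 genes in each library as the log2 ratio to its mean over the 6 libraries (colour, limited at ±1.5), with black lines between the groups of libraries and between the precursor and lineage-wide, differentiating and mature genes. Saline replicate 2 is red for most mature genes and PLEA replicate 2 blue for most enzymes and carriers, while Pdgfra and Sirt2 are pale throughout.

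Markers of peripheral myelin were low. Of 5 Schwann cell markers, Pmp2 had 0 counts in all 6 libraries. The 5 genes summed to 6.57 to 8.90 CPM, of which Egr2, which neurons also express, gave 2.83 to 7.28 CPM.

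Of 33 further precursor, differentiating and mature genes tested, 0 passed in edgeR. At an unadjusted p under 0.05, 7 were lower (21.2%, against 3.58% of all tested genes) and 0 higher. The log2 fold change was negative for 27 (81.8%, against 51.0% of all tested genes), with a median of -0.36. All PLEA libraries lay below all saline libraries for 5 of the 33 (15.2%, against 5.54% of all tested genes). Bmp4, a ligand made by committed precursors and by fibroblasts, was at 3.46, 3.12 and 3.02 CPM in saline and 1.16, 0.963 and 1.96 CPM in PLEA, with no overlap (log2 fold change -1.23, SE 0.34, edgeR adjusted p = 0.818). Ptprz1, a receptor phosphatase that precursors share with astrocytes, was at 449, 343 and 282 CPM in saline and 275, 203 and 231 CPM in PLEA, again with no overlap (log2 fold change -0.60, SE 0.19). Without saline replicate 1 Ptprz1 was at -0.39 on the log2 scale. Saline replicate 1 was also the highest library for 5 of 5 astrocyte markers, which summed to 1129 to 2897 CPM in saline and 717 to 1266 CPM in PLEA, and their part in the Ptprz1 value was not tested. The precursor genes C1ql1, Sox6 and Vcan stood at -0.45 (SE 0.33), -0.14 (SE 0.12) and 0.11 (SE 0.14) on the log2 scale. The differentiation genes Itpr2, Tmem163 and Zfp488 had values of -0.31 (SE 0.16), -0.55 (SE 0.33) and 0.22 (SE 0.21), and without saline replicate 2 Tmem163 was at -0.08. C1ql1 was at -0.25 without saline replicate 2 and at -0.72 without saline replicate 1, and Itpr2 at -0.14 without saline replicate 1.

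Among further mature genes, Ppp1r14a had a log2 fold change of -0.64 (SE 0.21), Plekhb1 -0.37 (SE 0.14), the connexin Gjb1 -0.89 (SE 0.34) and the prostaglandin synthase Ptgds, which meningeal cells also make, -0.53 (SE 0.21). Each had an edgeR adjusted p of 0.818.

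Ligands and inhibitors of the lineage had no shared direction. Of 12 such genes 11 were tested, 0 passed, and their median log2 fold change was 0.07. Pdgfa, the ligand of the Pdgfra receptor, was at 21.4 to 23.1 CPM in saline and 16.9 to 25.4 CPM in PLEA (log2 fold change -0.04, SE 0.17). Bmp7, a bone morphogenetic protein that meningeal cells also make, was at 15.9, 15.4 and 13.1 CPM in saline and 11.1, 8.39 and 10.3 CPM in PLEA, with no overlap (log2 fold change -0.57, SE 0.18, edgeR adjusted p = 0.818). Id2, an inhibitor of basic helix-loop-helix factors, had a log2 fold change of -0.33 (SE 0.14), Pdgfb 0.28 (SE 0.21) and the cytokine gene Lif, at most 2.52 CPM in any library, 0.72 (SE 0.78).

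Some counts may hold reads of neighbours. Exons of genes on the opposite strand overlap those of 13 of the 35 genes in GENCODE M21, by 42 to 567 bases, among them Lhfpl3, Bcas1, Gpr17, Ermn and Qdpr. The strand setting of the counting is not given in the sources used here, so reads of such neighbours cannot be told apart from those of the gene. Aspa, Ugt8a, Car2, Opalin, Mag and Tcf7l2 had no such overlap.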

How the data were processed

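RNA of brain tissue from 3 saline and 3 PLEA samples was sequenced, and the authors deposited raw counts of reads for each gene of 1 table, with gene lengths in bases. Which aligner and counter they used, and whether strand was used, is not given in the sources used here. GRCm38 and mm10 are named in the submitters' processing notes, but 0 of 35 genes had the span of GENCODE M21, an annotation of GRCm38, so gene spans are printed as deposited, with no build. Samples were grouped by title. Totals were 16810448 to 17516434 counts per library.

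The test was edgeR's quasi-likelihood F test (version 4.0.16, R 4.3.3) after filterByExpr and TMM scaling, with no term but treatment. P-values were adjusted over 17584 genes by Benjamini-Hochberg at a threshold of 0.05. Standard errors are absolute log2 fold changes over the root of F. CPM is the count over the TMM-scaled total. Only the edgeR test with TMM scaling and treatment as its term was tried on simulated counts, and the alternatives were not. Alternatives were DESeq2 1.42.0, limma 3.58.1 (voom), other factors and filters, a replicate block and leaving out each library. No pair of libraries within a group agreed within sampling noise. The genes and lists were chosen with earlier results of these data known, and the thalamic list and the counts at an unadjusted p under each alternative were added after values were seen. Per-library values were to be given for up to 4 genes of each role with the smallest p and for the defining genes Pdgfra, Cspg4, Olig2, Gpr17, Enpp6, Mbp, Mog, Mag and Cnp. Of each list of other lineage genes, up to 4 with the smallest p were named.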

Additional observations from a re-analysis of the deposited data

How the results depend on the processing

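The 35 lineage genes gave 0 calls under each alternative run. Over all genes edgeR called 0, against 37 lower and 2 higher by DESeq2, and 31 lower and 7 higher by edgeR with no filter. For these counts the cause was not tested. With 1 library left out, 0 genes were called higher and 0 to 1 lower. Lineage genes lower at an unadjusted p under 0.05 numbered 5, against 10 without a filter and 1 to 8 with 1 library left out, and those higher numbered 0 to 2, the 2 (Myrf and Tspan2) without saline replicate 2. With 1 library left out, the share of all tested genes under that p was not counted. Leaving out 1 library gave medians of log2 fold change from -0.41 to -0.05 for mature genes, -0.24 to 0.22 for differentiating genes and -0.37 to -0.09 for precursor and lineage-wide genes. The replicate number as a block gave 0 lineage genes called and medians of -0.21, -0.11 and -0.19. Same-numbered libraries deviated from their group means with correlations of 0.373, 0.173 and -0.0176. Differently numbered libraries were not set beside them, so these values cannot decide whether the numbers pair the samples.

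Log2 fold changes near 0 turned in sign for Mobp (0.0018 with limma voom, 0.0005 with the replicate block, 0.0016 with upper-quartile factors), Cldn11 (-0.0003 with DESeq2, -0.003 without a filter), Tspan2 (0.0324 with limma voom, 0.0322 with the replicate block) and Sirt2 (-0.0055 with DESeq2, -0.0093 without a filter). Leaving out 1 library turned the sign of 18 genes, with ranges of -0.0507 to 0.14 for Cspg4, -0.43 to 0.10 for Sox10, -0.0458 to 0.22 for Gpr17, -2.26 to 0.44 for Tcf7l2, -0.17 to 0.42 for Nkx6-2, -0.0074 to 0.57 for Myrf, -0.41 to 0.0976 for Mag, -0.15 to 0.13 for Mobp, -0.0843 to 0.13 for Cldn11, -0.62 to 0.0511 for Ermn, -0.0442 to 0.21 for Mal, -0.41 to 0.17 for Gjc3, -0.12 to 0.40 for Enpp2, -0.76 to 0.18 for Trf, -0.13 to 0.21 for Apod, -0.19 to 0.31 for Tspan2, -0.0909 to 0.0567 for Sirt2 and -0.0224 to 1.95 for Lif. A count of 46, the lowest of Nkx2-2, limits what can be said of that gene.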
